A study of Mus musculus with 20 samples.

Results

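The 6 genes described here encode the mouse fatty acid elongases Elovl1, Elovl2, Elovl3, Elovl5, Elovl6 and Elovl7, and were taken by their symbols from a table of 20914 genes. The left lateral lobe of the liver was sampled from 20 male mice, 8 weeks old and of the strain labelled LiB12cKO, and its RNA was sequenced with 1 library per mouse. Both groups carried homozygous floxed Hsd17b12. The 10 knockout mice (KO; HSD17B12lox/lox;Alb-CreCre/WT) also carried Cre recombinase driven by the albumin promoter, a hepatocyte promoter, and the 10 control mice (WT; HSD17B12lox/lox;Alb-CreWT/WT) carried no Cre. Every KO mouse had Cre and no WT mouse did, so an effect of Cre and an effect of losing the enzyme cannot be told apart.

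Elongation of fatty acids beyond palmitate takes place in the endoplasmic reticulum as a cycle of reactions that adds malonyl-CoA carbons to an acyl-CoA. An Elovl enzyme carries out the first reaction, the condensation, and sets which chains enter the cycle. The product is reduced by Hsd17b12, dehydrated by a Hacd enzyme and reduced again by Tecr. Elovl2 and Elovl5 elongate polyunsaturated fatty acids. Elovl6 elongates palmitate to stearate, Elovl1 and Elovl3 make very long saturated and monounsaturated chains, and Elovl7 acts on long saturated chains. In liver, Elovl5 and Elovl6 are known targets of the lipogenic factor Srebp-1c, while Elovl3 is known for higher RNA in males and for a daily rhythm.

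The elongases share a histidine box, a short stretch of the active site rich in histidine. Its coding sequence is shown to set the genes beside their closest relatives, because the paired genes did not all move alike in KO livers. Each line gives 45 bases of the coding strand, read 5′ to 3′ from the GENCODE M21 transcripts on GRCm38, with the codons of the box in capitals.
Elovl1: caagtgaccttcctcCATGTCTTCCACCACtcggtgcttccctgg
Elovl7: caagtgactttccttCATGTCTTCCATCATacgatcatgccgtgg
Elovl2: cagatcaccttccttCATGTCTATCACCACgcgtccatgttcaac
Elovl5: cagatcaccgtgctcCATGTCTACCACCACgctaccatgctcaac
Elovl3: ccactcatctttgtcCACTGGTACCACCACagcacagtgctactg
Elovl6: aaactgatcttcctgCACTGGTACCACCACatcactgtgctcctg
The box lies in exon 6 of Elovl1 (chr4:118431439-118431483, plus strand), exon 6 of Elovl7 (chr13:108274316-108274360, plus strand), exon 5 of Elovl2 (chr13:41189986-41190030, minus strand), exon 5 of Elovl5 (chr9:77976835-77976879, plus strand), exon 4 of Elovl3 (chr19:46134407-46134451, plus strand) and exon 5 of Elovl6 (chr3:129633092-129633136, plus strand). Elovl3 and Elovl6 were identical at 15 of 15 bases of the box. Over aligned coding sequence, nucleotide identity was 62.5% between Elovl2 and Elovl5, 62.1% between Elovl1 and Elovl7 and 56.0% between Elovl3 and Elovl6, against a median of 47.2% over all 15 pairs. The longest run of bases shared by any pair, wherever it lay in the coding sequences, was 23, between Elovl2 and Elovl5.

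The libraries held 16693195 to 29124124 fragments assigned to genes. Mice of a genotype differed by more than sampling noise in all 90 pairs (chi-square per degree of freedom, 12.8 to 252). The p-values set the difference between genotypes against the spread between these mice. Nothing in the labels names a litter, batch or date, so effects of these cannot be separated. Levels of one gene are given as CPM, the fragment count relative to a library size after scaling by the trimmed mean of M-values (TMM), and levels of different genes as RPKM, the same value per kilobase of gene length. Mouse KO_391 stood apart from the other KO mice. On the first principal component, which held 73.2% of the variance of the 1000 most variable genes, it lay at -4.19, the other KO mice between -58.2 and -28.5, and the WT mice between 22.6 and 45.6. Of the WT mice, WT_441, WT_415 and WT_429 lay nearest to the KO mice, at 22.6, 24.4 and 34.0. TMM factors also differed by genotype, with a mean of 1.18 ± 0.061 in the KO libraries and 0.852 ± 0.061 in the WT libraries (SD, n = 10 each). Scaling by library size alone shifted the median over tested genes by 0.47, from a log2 fold change of -0.021 to 0.44. Changes under that scaling are read against this shift.

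Hsd17b12, the targeted reductase, was lower in every KO mouse, between 44.0 and 51.3 CPM against 123 to 177 CPM in WT. Its KO mean was 31.6% of the WT mean (log2 fold change -1.66, SE 0.065, adjusted p = 3.31e-14). KO_391 had 50.9 CPM, within the range of the other KO livers. Counts cover the whole gene, and the labels do not name the deleted exons.

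All 6 elongase genes passed the filter on low counts and differed between the genotypes at an adjusted p under 0.05. Elovl1, Elovl2, Elovl5, Elovl6 and Elovl7 rose and Elovl3 fell in KO liver. These 5 rises and 1 fall stand against a background in which 58.8% of 13670 tested genes were called, made up of 28.4% higher and 30.5% lower. In whole liver RNA, a change in the number of cells of a type and a change in RNA per cell cannot be told apart. The values of the 10 KO mice did not overlap those of the 10 WT mice for 2 of the 6 genes, Elovl1 and Elovl7, both higher in KO. Over all tested genes 7.2% were higher without overlap, 6.12% lower and 13.3% either. The median log2 fold change of the 6 genes was 0.98, against -0.021 over all tested genes. With library size alone the same 5 were higher and 1 lower, where 68.4% of tested genes were higher and 6.72% lower, and the median of the 6 was 1.43. The plot of CPM by mouse shows the 6 genes side by side.

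**Figure D1:**
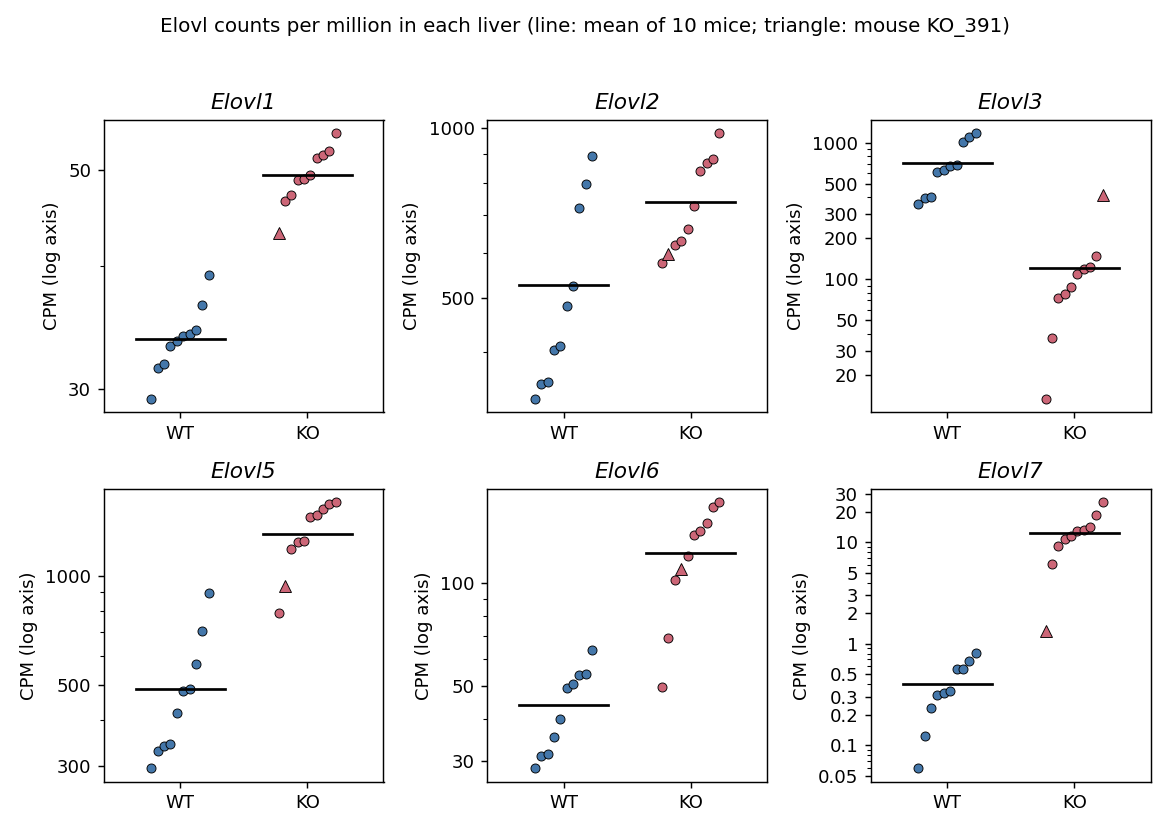
CPM on a log axis for each of the 6 elongase genes, 1 point per liver with 10 WT and 10 KO mice; points are sorted by value within a genotype, lines are means, and the triangle is mouse KO_391. Elovl1 and Elovl7 do not overlap between the genotypes, and KO_391 is the KO mouse with the highest Elovl3 (417 CPM) and the lowest Elovl7 (1.32 CPM).

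Elovl5 (Entrez gene 68801, mm10 chromosome 9, 77917365 to 77984519, plus strand, 8 exon blocks), the elongase of shorter polyunsaturated chains, ranged from 788 to 1589 CPM in KO with a median of 1344. In WT it ranged from 295 to 896 CPM with a median of 450.3. In 9 of 10 KO mice it lay above every WT mouse, and KO_416 was the exception. WT_415 was the highest control, and the other 9 WT mice lay below every KO mouse. The means were 1299 ± 274 and 487 ± 191 CPM (SD, n = 10 each), a 2.67-fold rise (log2 fold change 1.41, SE 0.19, adjusted p = 1.63e-06).

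Elovl2 (Entrez gene 54326, chromosome 13, 41182382 to 41220403, minus strand, 8 exon blocks), which acts after Elovl5 on longer polyunsaturated chains, had the smallest fitted change. It ranged from 576 to 979 CPM in KO (median 694) and from 331 to 891 CPM in WT (median 448). Only 1 KO mouse lay above every WT mouse, while 7 WT mice lay below every KO mouse. The remaining controls, WT_415, WT_429 and WT_441, had 891, 796 and 720 CPM and lay among the KO values. The mean rose from 527 ± 203 in WT to 738 ± 143 CPM in KO (SD, n = 10 each), with a log2 fold change of 0.49 (SE 0.18, adjusted p = 0.0233). Of all tested genes 33.1% lay at least as far from 0. The order of Elovl2 and Elovl1 differed among fits, and limma-voom with sample quality weights gave 0.62 for Elovl2 and 0.58 for Elovl1.

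Elovl6 (Entrez gene 170439, chromosome 3, 129532386 to 129638495, plus strand, 5 exon blocks), the elongase of palmitate, ranged from 49.6 to 173 CPM in KO (median 129) and from 28.6 to 63.9 CPM in WT (median 44.5). KO_416 lay among the controls, and the other 9 KO mice lay above every WT mouse. The means were 122 ± 40.5 and 43.8 ± 12.1 CPM (SD, n = 10 each), a 2.80-fold rise (log2 fold change 1.48, SE 0.21, adjusted p = 3.96e-06). KO_416 was the lowest KO mouse for both Elovl5 and Elovl6.

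Elovl1 (Entrez gene 54325, chromosome 4, 118428093 to 118432916, plus strand, 9 exon blocks), which makes very long saturated chains used in sphingolipids, varied least among mice. It ranged from 43.1 to 54.4 CPM in KO (median 49.1) and from 29.3 to 39.2 CPM in WT (median 33.8). All 10 KO mice lay above all 10 WT mice, and KO_391 was the lowest of them. The means were 49.4 ± 3.26 and 33.7 ± 2.71 CPM (SD, n = 10 each), a 1.46-fold rise (log2 fold change 0.55, SE 0.05, adjusted p = 1.27e-08). Elovl1 shares 16 exon bases with Cdc20, a gene of mitosis on the opposite strand. Cdc20 was itself higher in KO (log2 fold change 2.83), at 1.56 to 32.8 CPM against 0.235 to 3.18 CPM. No source used here gives the strand setting of the counting, and the part of Cdc20 in the Elovl1 value was not tested.

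Elovl7 (Entrez gene 74559, chromosome 13, 108214404 to 108287109, plus strand, 8 exon blocks) had the largest fitted change of the 6 genes and the lowest RPKM. In WT it was covered by 1 to 14 fragments per mouse, or 0.0589 to 0.817 CPM with a median of 0.336. In KO it ranged from 1.32 to 24.8 CPM with a median of 12.3. KO_391, with 33 fragments, was lowest, while the other KO mice had 145 to 534 fragments, and no KO mouse overlapped the controls. The mean rose from 0.401 ± 0.244 to 12.3 ± 6.45 CPM (SD, n = 10 each), with a fitted log2 fold change of 4.99 (SE 0.44, adjusted p = 9.63e-09). At least as far from 0 lay 33 of all tested genes, Elovl7 included, or 0.241%. The size depends on how low values were treated: on log2(RPKM + 0.1) the difference was 3.56, and on log2(RPKM + 1) it was 1.51, both by limma-trend, and the second is smaller than the Elovl3 difference. The low WT counts limit the precision of the fold. Without KO_391 the log2 fold change was 5.16, a rise that leaving out the lowest KO mouse brings by itself.

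Elovl3 (Entrez gene 12686, chromosome 19, 46131899 to 46135694, plus strand, 4 exon blocks) was the only one of the 6 to fall. It ranged from 359 to 1181 CPM in WT with a median of 659. In KO it ranged from 13.3 to 417 CPM with a median of 99.0. KO_391 held the highest KO value and overlapped 3 controls, WT_427, WT_429 and WT_441 (397, 401.9 and 359 CPM). The other 9 KO mice had 13.3 to 149 CPM and lay below every WT mouse. The KO mean of 121 ± 112 CPM was 17.1% of the WT mean of 708 ± 299 CPM (SD, n = 10 each), with a log2 fold change of -2.55 (SE 0.45, adjusted p = 7.09e-05). Without KO_391 the log2 fold change was -2.98 (SE 0.38, adjusted p = 1.86e-06). Elovl3 shares 10 exon bases with Pitx3 on the opposite strand, and Pitx3 was also lower (log2 fold change -2.68). The part of those shared bases was not tested.

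Elovl4 was listed with 0 to 2 fragments per mouse and was not tested. In the authors' deposited table of the ROTS test, log2 fold changes were 3.05 for Elovl7, -2.88 for Elovl3, 1.47 for Elovl5, 1.42 for Elovl6, 0.55 for Elovl2 and 0.54 for Elovl1. The false discovery rate in the authors' deposited table was 0.0145 for Elovl2, 0.00918 for Elovl1 and listed as 0 for the other 4 genes. Of the 12820 genes in the authors' deposited table, 40.9% had a rate under 0.05.

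Per unit of length, the elongase with the highest level differed between the genotypes. Elovl3 was highest in 9 of 10 WT mice, and Elovl5 in WT_441. Elovl5 was highest in 10 of 10 KO mice. Mean RPKM in WT was 377 ± 159 for Elovl3, 175 ± 68.8 for Elovl5, 137 ± 52.9 for Elovl2, 17.7 ± 1.42 for Elovl1, 7.35 ± 2.03 for Elovl6 and 0.0737 ± 0.0450 for Elovl7 (SD, n = 10). In that order, the ranges of Elovl3 and Elovl5 overlapped, as did those of Elovl5 and Elovl2, and all later neighbours were separate. In KO the order was Elovl5 at 467 ± 98.5 RPKM, Elovl2 at 192 ± 37.2, Elovl3 at 64.3 ± 59.4, Elovl1 at 25.9 ± 1.71, Elovl6 at 20.6 ± 6.80 and Elovl7 at 2.26 ± 1.19 (SD, n = 10). Elovl5 was separate from Elovl2 and Elovl6 from Elovl7, while the other neighbours overlapped.

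Elovl3 made up 51.8% ± 16.6 of the summed RPKM of the 6 genes in WT and 8.46% ± 7.86 in KO (SD, n = 10 each). Its WT share ranged from 29.1% to 72.9%. In KO it ranged from 0.822% to 29.4%, with KO_391 at the top. Elovl5 made up 24.9% ± 9.02 in WT and 60.0% ± 7.44 in KO. Elovl2 held 19.6% ± 7.63 and 25.2% ± 5.82, and the other 3 genes were small shares in both genotypes. The summed RPKM overlapped between the genotypes, at 549 to 910 in WT and 580 to 919 in KO. Without Elovl3 the sum was 338 ± 120 RPKM in WT and 708 ± 117 RPKM in KO (SD, n = 10 each). The stacked shares show the 6 genes in each liver.

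**Figure D2:**
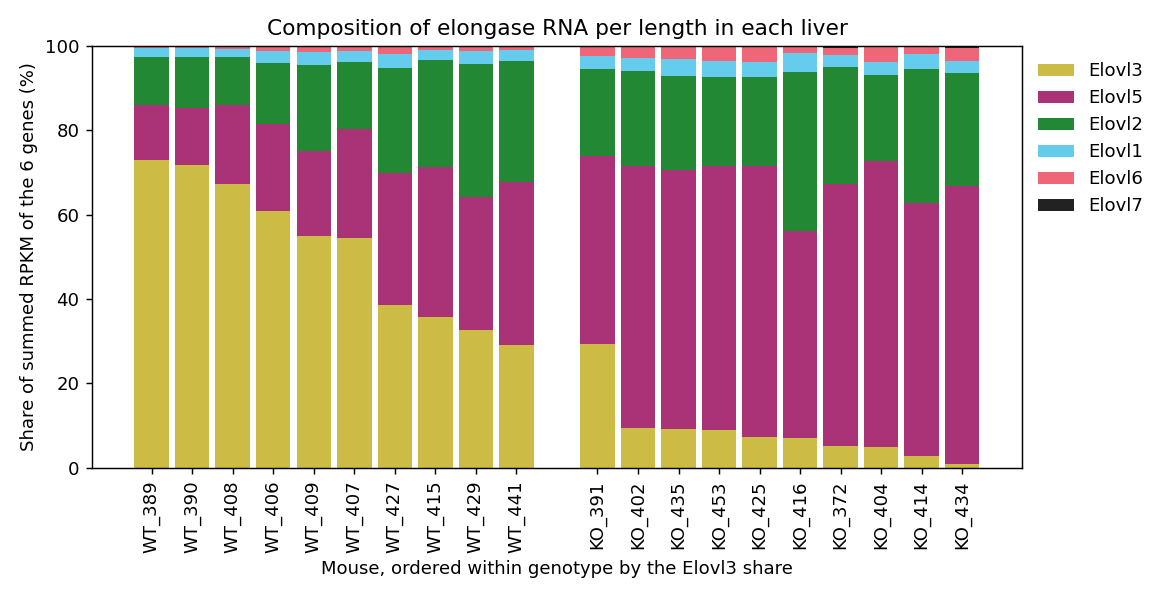
Share of the summed RPKM of the 6 elongase genes taken by each gene, in percent, with 1 bar per liver, ordered within genotype by the Elovl3 share. Elovl3 takes 29.1% to 72.9% in the WT livers and 0.822% to 29.4% in the KO livers, where Elovl5 takes 44.5% to 67.9%.

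Ratios of the elongases within a mouse do not depend on how libraries were scaled. Of 15 pairs, 6 had log2 ratios that did not overlap between the genotypes, and each of them held Elovl3 or Elovl7. Elovl3 and Elovl7 had the largest fitted changes, and the pairs share genes, so they are not separate results. No share over pairs of other genes was computed. The log2 ratio of Elovl3 to Elovl5 was 1.08 ± 1.04 in WT, from -0.41 to 2.47, and -3.30 ± 1.46 in KO, from -6.33 to -0.60 (SD, n = 10 each). KO_391 held the -0.60, and the other KO mice reached at most -2.73. Among the pairs closest in sequence, Elovl3 and Elovl6 moved in opposite directions, with a log2 ratio of Elovl3 to Elovl6 of 5.61 ± 0.94 in WT and 1.26 ± 1.40 in KO. The log2 ratio of Elovl1 to Elovl7 was 8.25 ± 1.17 in WT and 3.81 ± 1.12 in KO, again without overlap. That of Elovl2 to Elovl5 was -0.35 ± 0.27 and -1.27 ± 0.40, with overlap. Elovl5 and Elovl6, which are distant in sequence, had a log2 ratio of 4.54 ± 0.50 in WT and 4.56 ± 0.40 in KO. The plot of Elovl5 against Elovl3 shows both genotypes by mouse.

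**Figure D3:**
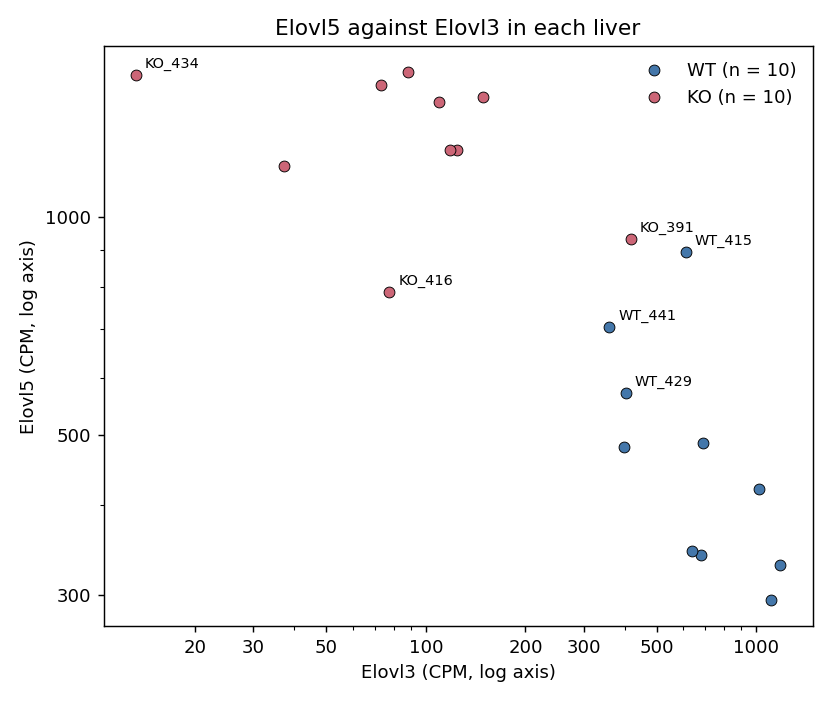
Elovl5 against Elovl3 in each liver, both in CPM on log axes, with 10 WT mice in blue and 10 KO mice in red; 6 mice named in the text are labelled. The genotypes occupy separate areas, and KO_391, at 417 CPM of Elovl3 and 934 CPM of Elovl5, is the KO mouse nearest to the controls.

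Within a genotype, 42 relations among the 6 genes and Hsd17b12 were computed over 10 mice each, and 0 passed adjustment by Pearson's r or Spearman's rho. Without adjustment, 9 had a permutation p under 0.05 by Pearson's r and 6 by Spearman's rho. In WT, Elovl2 and Elovl5 were closest, with r = 0.869 (two-sided permutation p = 0.00126, adjusted p = 0.0529) and rho = 0.806 (permutation p = 0.00748, adjusted p = 0.278). Without the 2 mice farthest from the median of Elovl2, WT_415 and WT_429, r was 0.780. In KO, Elovl3 and Elovl7 had r = -0.789 (permutation p = 0.0140, adjusted p = 0.197) and rho = -0.612 (permutation p = 0.0658, adjusted p = 0.307). That relation rested on KO_391 and KO_434, without which r was -0.321. With scaling by library size alone, 3 relations passed adjustment in WT by Pearson's r, Elovl1 with Elovl2 (r = 0.937), Elovl2 with Elovl5 (r = 0.902) and Elovl1 with Elovl5 (r = 0.897). By Spearman's rho 0 passed under that scaling. Without WT_415 and WT_441 none of the 3 passed, with r of 0.855, 0.745 and 0.627 and adjusted permutation p of 0.283, 0.283 and 0.303.

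The genes whose log2 CPM followed each elongase most closely in both genotypes were sought among 10895 genes, as a description over 10 KO and 10 WT mice that share libraries and depth. For Elovl2 they included Il1rn and Fads1, and Fads1, the delta-5 desaturase of polyunsaturated chains, had r = 0.883 in KO and 0.980 in WT. For Elovl5 they were Insig1, Fmn1 and Sc5d, and Insig1, a sterol-regulated membrane protein, had r = 0.872 and 0.838. For Elovl6 they were Rnf14, Fasn and Rassf3, and Fasn, the fatty acid synthase that makes palmitate, had r = 0.898 and 0.826. For Elovl3 they were Pitx3, Ugt2b1 and Tmem243. Pitx3, the gene with shared exon bases, had r = 0.949 and 0.925, and Ugt2b1, a glucuronosyltransferase, had 0.941 and 0.910. Elovl1 was followed by Tnfaip1, Cdc42se1 and Myh9, with r between 0.716 and 0.822. Elovl7 was followed by Sept10, Dnajc8 and H2-T22, with WT values that rest on 1 to 14 fragments of Elovl7.

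Promoters are shown for Elovl5 and Elovl6, which rose by similar factors, and for Elovl7, which rose most. Each line gives 250 bases before and 50 after a RefSeq start on GRCm38.p6, 5′ to 3′, with motif matches in capitals. The table matched 5 of the 6 genes, and Elovl3 is named only.
Elovl5: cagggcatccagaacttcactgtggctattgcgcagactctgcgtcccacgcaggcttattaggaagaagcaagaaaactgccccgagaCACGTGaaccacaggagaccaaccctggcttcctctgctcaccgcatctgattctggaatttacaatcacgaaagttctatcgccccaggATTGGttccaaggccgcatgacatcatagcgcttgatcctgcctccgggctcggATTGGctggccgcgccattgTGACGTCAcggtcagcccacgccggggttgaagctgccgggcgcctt
Elovl6: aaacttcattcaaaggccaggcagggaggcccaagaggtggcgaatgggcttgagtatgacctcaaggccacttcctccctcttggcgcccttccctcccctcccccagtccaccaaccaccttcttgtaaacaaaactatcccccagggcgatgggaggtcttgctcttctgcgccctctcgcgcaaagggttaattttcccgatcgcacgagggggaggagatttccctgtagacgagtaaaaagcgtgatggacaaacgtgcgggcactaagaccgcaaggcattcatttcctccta
Elovl7: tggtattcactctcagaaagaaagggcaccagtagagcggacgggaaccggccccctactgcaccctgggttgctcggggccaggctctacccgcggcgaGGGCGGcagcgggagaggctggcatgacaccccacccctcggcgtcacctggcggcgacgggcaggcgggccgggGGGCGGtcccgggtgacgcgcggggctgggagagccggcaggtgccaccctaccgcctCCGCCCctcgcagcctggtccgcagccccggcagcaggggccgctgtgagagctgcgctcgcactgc
The windows are chr9:77917115-77917414, chr3:129532136-129532435 and chr13:108214154-108214453, all on the plus strand. The 9 motifs searched on both strands were the E-box CACGTG, the cyclic AMP response element TGACGTCA, the sterol regulatory element TCACCCCAC, the CCAAT box CCAAT, the GC box GGGCGG, the PPAR direct repeat 1, the LXR direct repeat 4, the D-box TTATGTAA and the STAT5 site TTCNNNGAA. Elovl5 held an E-box at -161, a cyclic AMP response element at 4 and CCAAT boxes on the opposite strand at -71 and -17. Over 32851 promoters of the same length, 7.15% held that E-box, 1.79% that response element and 37.4% a CCAAT box. Elovl7 held GC boxes at -150, -75 and -17, a motif found in 35.7% of promoters. No match overlapped another in these windows. The Elovl6 window held none of the 9 letter strings, which says nothing of the factors. The other shares were 0.551% for the sterol regulatory element, 0.0396% for the PPAR repeat, 0.0152% for the LXR repeat, 0.938% for the D-box and 8.3% for the STAT5 site.

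Over all tested genes, 28.4% were higher and 30.5% lower with TMM, and 68.4% and 6.72% with library size alone. Counts of called genes in the lists that follow are read against these shares. Among genes of the later reactions of the elongation cycle, 6 of 7 were tested, with a median log2 fold change of 0.07. Of these, 2 were higher, 1 lower and 3 not called, near the TMM shares. Hsd17b12 was the one lower. The dehydratases Hacd1 (log2 fold change 0.46, adjusted p = 0.000142) and Hacd4 (1.31, adjusted p = 0.000607) were higher, Hacd4 at only 1.10 ± 0.425 CPM in KO (SD, n = 10). Hacd3 had a log2 fold change of 0.12 (adjusted p = 0.133), and the final reductase Tecr had -0.02 (adjusted p = 0.721). Hacd2 had 0.03. Scaling by library size alone gave 5 higher and 1 lower, with a median of 0.55 against 0.44 over all tested genes. The stricter filter gave 1 higher.

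Desaturases, which place double bonds in the chains that elongases lengthen, were higher for 7 of 8 tested genes, with a median log2 fold change of 1.90 and 0 lower. Scd2, Scd4 and Scd1, stearoyl-CoA desaturases that act on the product of Elovl6, rose by log2 fold changes of 4.23, 2.59 and 2.10. Scd1 ranged from 11283 to 24990 CPM in KO and from 2368 to 13893 CPM in WT. Fads2, the delta-6 desaturase that feeds Elovl5, rose by 1.70 (SE 0.24, adjusted p = 4.01e-06). Fads6 had 0.32 and was not called. In KO_391, 5 of the 8 genes were at their lowest KO value.

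**Figure D4:**
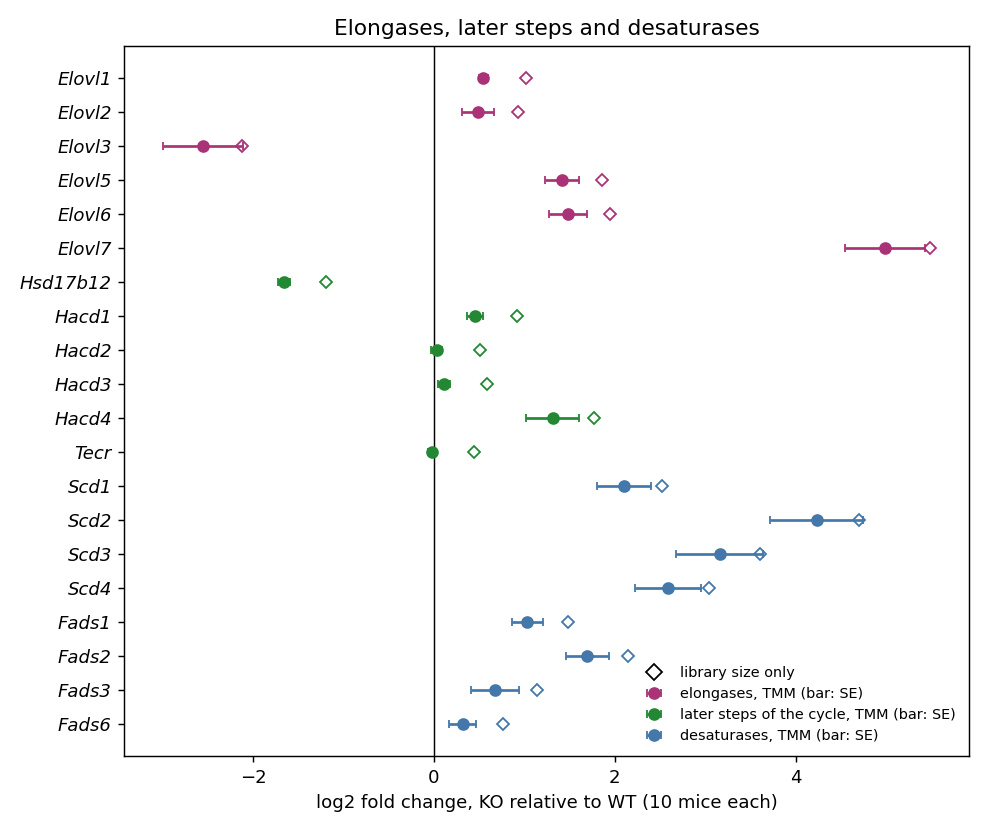
Log2 fold change between KO and WT (10 mice each, positive where KO is higher) for the elongases, the later steps of the cycle and the desaturases. Filled points with bars are TMM-scaled values with their SE, and open diamonds are values with library size alone; Elovl3 and Hsd17b12 are below 0 under both scalings.

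The supply of malonyl-CoA and palmitate, the substrates of the cycle, had 6 of 9 tested genes higher and 1 lower, with a median of 1.19. The acetyl-CoA carboxylases Acacb and Acaca rose by 1.71 and 1.24, Fasn by 2.23 (SE 0.25, adjusted p = 2.47e-07) and the malic enzyme Me1 by 1.53. Mlycd, which degrades malonyl-CoA, was lower (-0.36, adjusted p = 0.000172). With library size alone Mlycd had 0.11 and was not called, below the median of 0.44 over all tested genes. Acyl-CoA synthetases and their partners had 6 of 10 higher and 4 lower, with a median of 0.41. Acsl3, Acsl4 and Acsl5 rose by 1.54, 1.14 and 1.10, while Slc27a5, Slc27a2, Slc27a3 and Acsl1 were lower at -0.80, -0.58, -0.84 and -0.48. With library size alone 6 were higher and 1 lower.

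Peroxisomal import and shortening of very long chains had 5 of 11 genes higher, 2 lower and a median of 0.42. Ehhadh, the bifunctional enzyme, rose by 2.94 and the thiolase Acaa1b by 1.20, while Scp2 and Acox2 were lower at -0.73 and -0.58. With library size alone 8 were higher and 1 lower, with a median of 0.89 against 0.44 over all tested genes. Among ceramide synthases, which take very-long-chain products, Cers6 rose by 1.01 (adjusted p = 0.00222) and 3 of 4 tested genes were not called. Cers2, which makes ceramides with very long chains, had -0.07 (adjusted p = 0.427). Library size alone gave 4 of 4 higher, where 68.4% of all tested genes were higher. The median of the 4 was then 0.50, against 0.44 over all tested genes.

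Of 12 lipogenic and fatty-acid-sensing regulators, 3 were higher and 5 lower, with a median of -0.27. These counts lay near the shares over all tested genes, 28.4% higher and 30.5% lower. The nuclear receptor Pparg rose by 1.68, Insig1 by 0.72 and Nr1h2 by 0.26, while Scap and Nr1h3 were lower at -0.75 and -0.44. Srebf1 had -0.13 and was not called. With library size alone 5 were higher and 1 lower. Under that scaling Nr1h3 was at 0.02, below the median of 0.44 over all tested genes. A fit without WT_390 gave 5 higher.

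Genes with male-biased liver expression, the class in which Elovl3 is known, were lower for 13 of 18 and higher for 1, with a median of -1.59. Moxd1, Ugt2b1, Cyp2u1 and C8b were lower at -7.70, -2.07, -1.69 and -1.19, and Cyp4a12b was higher at 0.61. Moxd1 ranged from 0 to 212 CPM in WT and from 0 to 3.88 CPM in KO, with overlap, and KO_391 held the 3.88. KO_391 had the highest KO value in 16 of the 18 genes, as it had for Elovl3. Genes of the circadian clock, whose rhythm Elovl3 is known to follow, were lower for 11 of 18 and higher for 0, with a median of -0.56. Cry1, Hlf, Nr1d1 and Tef were lower at -1.28, -1.18, -1.02 and -0.92. With library size alone 5 clock genes were lower and 3 higher. The labels used here give no hour of collection, and the part of the clock shifts in the Elovl3 difference was not tested.

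Counts of called cell type markers are read against the shares over all tested genes. With TMM 28.4% were higher and 30.5% lower, and with library size alone 68.4% were higher and 6.72% lower. With TMM, the counts for endothelial, monocyte and neutrophil, and cholangiocyte markers lay near these shares. All 8 hepatocyte markers were lower, with a summed level of 46771 to 61437 CPM in KO and 75718 to 110954 CPM in WT, and with library size alone 5 of the 8 were lower. Kupffer cell markers were higher for 4 of 6 (sums 192 to 401.6 and 98.8 to 214 CPM) and markers of lipid-associated macrophages for 6 of 6 (134 to 248 and 41.1 to 133 CPM). Stellate and fibroblast markers were higher for 6 of 6 (271 to 500 and 146 to 278 CPM), endothelial markers for 2 of 5 (141 to 178 and 99.4 to 188 CPM) and dividing-cell markers for 4 of 4 (9.15 to 119 and 4.58 to 15.5 CPM). Of monocyte and neutrophil markers 1 of 4 was higher (5.83 to 12.4 and 2.81 to 9.59 CPM), of lymphocyte markers 0 of 1 (0.928 to 11.9 and 0.648 to 8.38 CPM), and of cholangiocyte markers 1 of 4 was higher and 1 lower (5.79 to 12.4 and 8.12 to 17.6 CPM). Adipocyte markers were too low to test, with sums of 0.0422 to 0.591 CPM in KO and up to 8.33 CPM in WT. KO_391 had the lowest KO sum for the hepatocyte, lipid-associated macrophage, endothelial and stellate lists, and not for the others. Most of the hepatocyte sum was Alb, of which KO_391 had the lowest KO value (26156 CPM). It had the highest KO values of Tat (1940 CPM) and Cps1 (3369 CPM), and lay between the KO extremes for the other hepatocyte markers. Under scaling by library size alone, the genes called higher were 5 of 6 for Kupffer cells, 5 of 5 for endothelial cells, 2 of 4 for monocytes and neutrophils, and 2 of 4 for cholangiocytes with 0 lower. The part of these shifts in the elongase differences was not tested.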

How the data were processed

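Liver RNA from 20 male mice, 10 KO and 10 WT, was measured with 1 library each, grouped by the genotype in the labels. Raw fragment counts for each Entrez gene on mm10 are deposited. File names give Rsubread, RefSeq and ROTS, whereas HISAT2 2.0.5 and DESeq2 stand in the submitters' processing notes. No source used here gives a strand setting. The authors' counts include multi-mapping fragments, which made up 3.34% ± 1.90 of mapped fragments in the KO libraries and 9.75% ± 3.74 in the WT libraries (SD, n = 10 each). KO_391 had the highest KO share (8.51%), and WT_441, WT_415 and WT_429 had the lowest WT shares (3.40%, 5.09% and 5.81%). The authors' deposited normalized signal equalled TMM-scaled CPM, with a largest relative deviation of 5.11e-15, and the deposited RPKM equalled that signal per kilobase. The deposited ROTS table gives, per the file headers, a log2 fold change, a fold score and a p-value with its false discovery rate. In the fragment statistics, 18 columns were not used.

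Counts were tested with edgeR 4.0.16 in R 4.3.3 by the two-sided quasi-likelihood F test with TMM factors. The filter filterByExpr, with a minimum count of 10 and a minimum total of 15, kept 13670 of 20914 genes, and the rest held 0.0858% of fragments; 620 genes have no symbol. P-values were adjusted by Benjamini-Hochberg over these genes, with a threshold of 0.05. SE is that of the log2 fold change, and log2 CPM has a prior count of 2. Relations used 100000 permutations.

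Members and lists were chosen with earlier results of these data known. Named genes were the members, Hsd17b12, up to 4 genes per list by smallest adjusted p, genes going against their list, genes with overlapping exons and the 3 most alike genes per member; some that met the rule are not reported here, and Insig1, Srebf1 and some uncalled list members were named after their values were seen. Alternatives were other scalings, filters and tests (DESeq2 1.42.0, limma 3.58.1) and leaving out mice. Sequences are from GENCODE M21 and RefSeq.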

Additional observations from a re-analysis of the deposited data

Results flagged for a closer look

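Among 14 groups of 10 values (6 elongases and Hsd17b12 in each genotype, in log2 CPM), 1 held a mouse far from the others, where chance alone marks about 1 in 20 groups. Elovl7 in KO_391 was 1.32 CPM, and the nearest KO mouse, KO_402, had 6.11 CPM. The gap was 0.516 of the KO range, above Dixon's critical value of 0.466.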

How the results depend on the processing

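All 6 elongases kept their direction and their call in each of 30 alternatives. The log2 fold change ranged from 0.53 to 1.01 for Elovl1, 0.43 to 0.93 for Elovl2, -3.06 to -2.12 for Elovl3, 1.35 to 1.85 for Elovl5, 1.33 to 1.95 for Elovl6 and 1.51 to 5.49 for Elovl7. Elovl2 came nearest to the threshold, with an adjusted p of 0.00345 to 0.0464 when 1 mouse was left out (edgeR). With library size alone, 9354 of all tested genes were called higher and 919 lower, against 3877 and 4163 with TMM, and 3 relations passed within WT by Pearson's r, against 0; none of the 3 passed without WT_415 and WT_441. That scaling moved mean Elovl1 to 30.6 RPKM in KO and 15.1 in WT. It multiplies all genes of a mouse by the same factor, so the order of levels within a mouse could not change. Circadian genes called higher were 0 with TMM and 1 in several alternatives, DESeq2 among them. Depth limits Elovl7 in WT. No paired analysis was possible because the KO and WT mice share no replicate numbers and the labels name no litter.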
